A study of Mus musculus with 6 samples.

Results

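Zic1, Zic2, Zic4 and Zic5, 4 genes of the ZIC family of transcription factors, were described in a mouse model of medulloblastoma and in control cerebellum. They were the rows of the deposited gene table whose symbol equals one of these names, 4 of 43629 genes. The rule used gene names and no cutoff on values, but the members were chosen with earlier results of these data known. RNA was sequenced from the cerebellum of female mice on a C57BL/6 background at postnatal day 35, from 3 control and 3 tumor samples. The control samples, titled WT, carried the SmoM2.c/wt genotype without Cre. The tumor samples carried Math1-Cre together with SmoM2.c/wt, so every sample in both groups held the conditional SmoM2 allele. The SmoM2 protein is a mutant Smoothened, a membrane protein of the Hedgehog pathway, that signals without ligand. Math1, also named Atoh1, is expressed in the progenitors of cerebellar granule neurons, and the Math1-Cre transgene directs recombination to that lineage. The tumor samples therefore model the Hedgehog-driven class of medulloblastoma from that lineage only. The study's design text describes the controls as littermates matched for age and sex. The labels do not say that each sample came from a separate mouse. The p-values therefore weigh group differences against the spread between these samples, which may in part be technical.

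ZIC proteins take their name from the zinc fingers they carry and from the cerebellum, where they were first described. Their tandem C2H2 zinc fingers bind DNA and resemble those of the GLI proteins, which carry out the transcriptional response to Hedgehog signalling. In mice, loss of Zic1 gives a small cerebellum with altered foliation, reduced Zic2 dosage gives holoprosencephaly and neural tube defects, and loss of Zic5 gives neural tube and neural crest defects. Zic1 and Zic4 lie side by side in opposite orientation and Zic2 and Zic5 form a second such pair. In humans, deletions that remove ZIC1 and ZIC4 together have been linked to the Dandy-Walker malformation of the cerebellum. Zic1 and Zic2 are expressed in granule cell progenitors and remain expressed in granule neurons after they mature.

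The coding sequences show how alike the 4 genes are where they bind DNA, and so how far short reads could be assigned to the wrong member. From the GENCODE M21 annotation of GRCm38, the coding transcripts Zic1-201, Zic2-201, Zic4-201 and Zic5-201 were used. They translate to 447 residues for Zic1, 529 for Zic2, 341 for Zic4 and 622 for Zic5, and a pattern search found 4 C2H2 matches in each. Over 258 bases from the first to the third match, base identity ran from 80.2% between Zic4 and Zic5 to 88.8% between Zic1 and Zic2. The translated identity over the same 86 codons ran from 91.9% for Zic4 and Zic5 to 98.8% for Zic1 and Zic2. The second match with its linker is printed for each gene, 90 bases from the coding strand, 5′ to 3′. Capitals mark the 61 bases that are identical in all 4 genes.
Zic1: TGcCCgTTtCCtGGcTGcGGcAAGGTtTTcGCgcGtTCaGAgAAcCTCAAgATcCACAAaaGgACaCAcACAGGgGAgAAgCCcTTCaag
Zic2: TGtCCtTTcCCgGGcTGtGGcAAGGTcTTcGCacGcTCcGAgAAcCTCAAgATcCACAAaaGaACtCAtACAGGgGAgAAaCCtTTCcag
Zic4: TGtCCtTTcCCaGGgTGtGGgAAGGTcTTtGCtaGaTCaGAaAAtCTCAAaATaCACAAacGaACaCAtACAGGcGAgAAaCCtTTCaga
Zic5: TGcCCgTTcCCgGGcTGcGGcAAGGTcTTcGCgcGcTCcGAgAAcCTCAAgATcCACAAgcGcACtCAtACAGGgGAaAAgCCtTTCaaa
These stretches begin at codon 304 of Zic1, codon 334 of Zic2, codon 213 of Zic4 and codon 452 of Zic5. The lower-case differences are spread through the stretch, and break it into short shared runs. Across all annotated transcripts, no pair of the 4 genes shared a stretch of 50 bases on the same strand. At 30 bases, Zic1 and Zic4 shared 15 same-strand stretches, Zic1 and Zic2 shared 11, Zic2 and Zic4 shared 1, and the 3 pairs with Zic5 shared 0. The sources used here do not give the read length.

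Zic1 (ENSMUSG00000032368) lies on the minus strand of mm10 chromosome 9 at 91358058 to 91365810. Zic4 (ENSMUSG00000036972) lies on the plus strand at 91362413 to 91389348 on the same chromosome. The gene spans of Zic1 and Zic4 overlap by 3398 bases, but their exons overlap by only 60 bases, from 91362459 to 91362518. That overlap makes up 1.05% of the Zic1 exon bases and 0.581% of the Zic4 exon bases. It is the only place where reads from the pair could not be told apart by position, since the sources used here do not say whether the counting used strand. Zic5 (ENSMUSG00000041703) lies on the minus strand of chromosome 14 at 122456795 to 122465677. Zic2 (ENSMUSG00000061524) lies on the plus strand of chromosome 14 at 122475435 to 122479852, and a gap of 9757 bases separates it from Zic5.

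RefSeq promoter windows, 250 bases before to 50 bases after the start on GRCm38.p6, were found for Zic1, Zic4 and Zic5 of the 4 genes. They are printed because Zic4 and Zic5 rose in the tumors while Zic1, whose RefSeq start lies 3204 bases from that of Zic4, did not pass the test. The Zic1 window is chr9:91365719-91366018 on the minus strand, the Zic4 window is chr9:91368722-91369021 on the plus strand, and the Zic5 window is chr14:122465609-122465908 on the minus strand. Each is printed 5′ to 3′ on its gene's strand, with CpG dinucleotides in capitals.
Zic1: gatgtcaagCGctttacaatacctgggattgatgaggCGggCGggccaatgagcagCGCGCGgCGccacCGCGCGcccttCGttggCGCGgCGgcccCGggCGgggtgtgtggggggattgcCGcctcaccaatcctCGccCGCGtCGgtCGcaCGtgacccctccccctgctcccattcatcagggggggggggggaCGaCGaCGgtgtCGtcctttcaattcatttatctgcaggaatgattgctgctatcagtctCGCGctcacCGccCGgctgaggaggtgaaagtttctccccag
Zic4: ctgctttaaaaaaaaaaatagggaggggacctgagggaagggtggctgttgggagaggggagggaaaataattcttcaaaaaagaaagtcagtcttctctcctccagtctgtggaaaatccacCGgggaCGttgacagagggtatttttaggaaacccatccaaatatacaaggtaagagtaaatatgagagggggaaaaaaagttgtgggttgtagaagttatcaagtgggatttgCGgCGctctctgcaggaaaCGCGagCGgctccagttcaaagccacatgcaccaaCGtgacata
Zic5: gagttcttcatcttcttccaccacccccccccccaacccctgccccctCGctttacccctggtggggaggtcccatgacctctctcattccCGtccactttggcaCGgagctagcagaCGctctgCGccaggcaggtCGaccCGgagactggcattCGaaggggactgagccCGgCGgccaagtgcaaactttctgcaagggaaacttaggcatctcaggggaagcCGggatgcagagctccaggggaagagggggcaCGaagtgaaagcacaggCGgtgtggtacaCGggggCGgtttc
The Zic1 window held 31 CpG dinucleotides at a G+C content of 65.3%, and the Zic5 window held 15 at 62.7%. The Zic4 window differed from both, with 8 CpG dinucleotides at 46.0%. It lies around a RefSeq start at 91368972, inside the counted Zic4 gene, which begins at 91362413. Other Zic4 starts were not examined. The median of 32544 RefSeq windows of this length was 7 CpG dinucleotides and 53.0% G+C. None of 4 motifs, searched on both strands, matched in the 3 windows. The GLI consensus GACCACCCA occurs in 0.246% of all windows, and its core CCACCCA, which lies inside the consensus, occurs in 9.33%. A ZIC2 binding motif, CAGCAGG, occurs in 10.5% of windows, and the E-box CAGNTG that ATOH1 binds occurs in 51.5%.

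The deposited values are read counts divided by a size factor for each library, called normalized read counts here. Library totals ran from 44902217 to 69550200 reads, with tumor 1 the deepest, and 3 reads, the limit that a count of 0 allows, corresponded to 2.17 to 3.57 normalized counts. Mitochondrial genes took 6.84% to 7.06% of the reads in the controls and 2.49% to 3.79% in the tumors. Each of the 4 genes had at least 8817 reads summed over each group.

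Zic4 and Zic5 were higher in the tumors, Zic2 was slightly lower, and Zic1 did not pass the test. Zic4 rose 3.03-fold from 3446 ± 172 to 10426 ± 318 normalized counts, and Zic5 rose 1.99-fold from 3302 ± 122 to 6573 ± 630 (mean ± SD, n = 3 for each group). Zic2 was 1.26-fold lower in the tumors, 8856 ± 331 against 11171 ± 112 normalized counts. Thus 2 of the 4 genes were called higher, where 30.6% of the 22117 tested genes were, 1 was called lower, where 31.5% were, and 3 passed in either direction, where 62.1% did. The median log2 fold change of the 4 genes was 0.52, against -0.02 over all tested genes, whose quartiles were -0.94 and 0.78. In tissue RNA, fewer cells of a type and less RNA per cell cannot be told apart, and this holds for each difference below.

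Zic1, required in mice for the normal size and folding of the cerebellum, was the most abundant of the 4 genes. Its normalized counts were 57549, 55731 and 49303 in controls 1 to 3 and 56804, 58375 and 52022 in tumors 1 to 3. The 2 groups overlapped, the highest value was in tumor 2 and the lowest in control 3. The ratio of means, tumor over control, was 1.03, and the log2 fold change was 0.04 ± 0.10 (SE), with a 95% confidence interval from -0.18 to 0.26 and an adjusted p of 0.738 (limma on log2 values, Benjamini-Hochberg over all tested genes). The interval leaves out a change of the size seen for Zic4 or Zic5. Only 2.88% of tested genes had a log2 fold change as close to 0, and the median absolute log2 fold change was 0.857. By mean normalized count, Zic1 ranked 60 in the controls and 40 in the tumors among 43629 genes. Its sign turned when control 3 was left out, with a log2 fold change of -0.02, and under upper-quartile scaling, with -0.07.

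Zic4, which shares its locus with Zic1, had normalized counts of 3628, 3287 and 3423 in controls 1 to 3 and 10654, 10561 and 10063 in tumors 1 to 3. The groups were far apart, and the lowest tumor lay above the highest control. The log2 fold change was 1.60 ± 0.08 (SE), with a 95% confidence interval from 1.43 to 1.77 and a limma adjusted p of 9.68e-08. Its rank by mean count moved from 3710 in the controls to 897 in the tumors. The step was moderate for this comparison, since 11.7% of all tested genes, and 36.8% of the genes called higher, had a larger log2 fold change.

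Zic5, needed for neural tube closure in mice, had normalized counts of 3415, 3319.5 and 3172 in controls 1 to 3. The tumors had 7256, 6013 and 6450.0, all above every control, with tumor 1 the highest. The log2 fold change was 0.99 ± 0.09 (SE), with a 95% confidence interval from 0.79 to 1.19 and a limma adjusted p of 6.69e-06. Of all tested genes, 20.5% had a larger log2 fold change, as did 57.6% of the genes called higher. The coefficient of variation of Zic5 was 3.70% in the controls and 9.59% in the tumors. Among 8599 genes with a mean of at least 1000 counts in the table, the median coefficient was 4.64% in the controls and 9.85% in the tumors.

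Zic2, a gene mutated in some human holoprosencephaly, had normalized counts of 11042, 11232 and 11239 in controls 1 to 3 and 8873, 9178 and 8517 in tumors 1 to 3. The groups did not overlap, and the control values lay close together, with a coefficient of variation of 1.002% against 3.73% in the tumors. The log2 fold change was -0.34 ± 0.07 (SE), with a 95% confidence interval from -0.50 to -0.17 and a limma adjusted p of 0.00254. This difference was small, and 60.0% of tested genes had a log2 fold change above it. In all, 3 of the 4 genes had groups that did not overlap, against 67.7% of tested genes. For 2 of them all tumors lay above all controls, as for 33.2% of tested genes, and for 1 below, as for 34.5%.

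**Figure D1:**
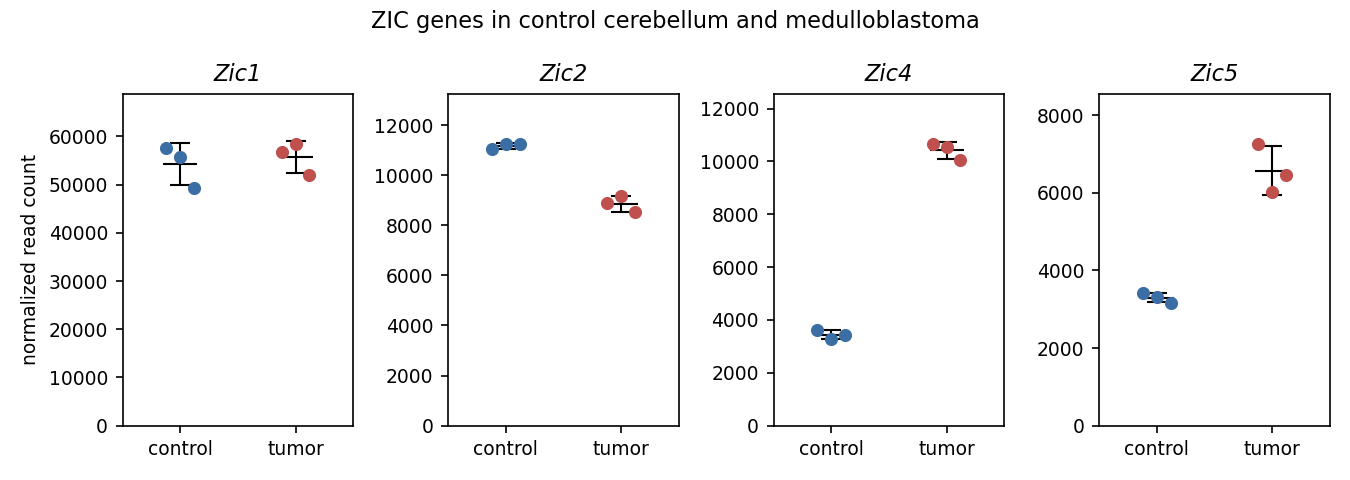
Normalized read counts of Zic1, Zic2, Zic4 and Zic5 in the 3 control (blue) and 3 tumor (red) samples, with the mean and SD of each group in black and a separate linear axis from 0 for each gene. The Zic1 groups overlap, the Zic2 tumors lie just below the controls, and the Zic4 and Zic5 tumors lie above all controls.

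The authors' deposited table gives the same directions. It lists a fold change of 3.03 with a false discovery rate of 2.47e-34 for Zic4 and of 1.99 with 2.99e-14 for Zic5. The authors' deposited table gives 0.793 with a false discovery rate of 0.0176 for Zic2 and 1.03 with 0.883 for Zic1. The second of the authors' deposited tables, a shorter list of 2654 genes, holds 0 of the 4 ZIC genes.

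Comparing genes within a library removes the library's scaling. All 6 pairwise ratios differed between groups in the fits of each gene's log2 ratio to Zic2, Zic4 or Zic5, where 63.3%, 81.6% and 71.0% of all genes did. The exact permutation test over the 3 against 3 samples gave a two-sided p of 0.1 for each ratio, the smallest p this design allows. These high background shares mean that a called ratio was common for any gene.

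The head-to-head neighbours on chromosome 9 diverged. The log2 ratio of Zic1 to Zic4 was 3.99, 4.08 and 3.85 in controls 1 to 3 and 2.41, 2.47 and 2.37 in tumors 1 to 3. The linear ratio went from 15.7 ± 1.28 to 5.34 ± 0.179, a log2 difference of -1.56 ± 0.13 (SE) with an adjusted p of 2.01e-07 (limma). On chromosome 14, the ratio of Zic2 to Zic5 went from 3.39 ± 0.155 to 1.36 ± 0.155, a log2 difference of -1.32 ± 0.10 (SE) with a limma adjusted p of 9.79e-07. In each adjacent pair, the member with the lower count in the controls rose, while its neighbour was not called (Zic1) or was called lower (Zic2).

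The widest separation was between Zic2 and Zic4. Zic2 exceeded Zic4 by 3.25 ± 0.189 times in the controls, and the ratio was 0.849 ± 0.0183 in the tumors, so their order by count turned. The log2 difference was -1.93 ± 0.10 (SE) with a limma adjusted p of 2.94e-09. The ratio of Zic1 to Zic5 went from 16.4 ± 0.740 to 8.53 ± 1.02, a log2 difference of -0.95 ± 0.11 (SE) with a limma adjusted p of 1.49e-05. The genes that rose also differed from each other, with Zic4 to Zic5 going from 1.04 ± 0.0471 to 1.595 ± 0.147, a log2 difference of 0.61 ± 0.10 (SE) and a limma adjusted p of 0.00028.

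The least marked difference was between Zic1 and Zic2, the most abundant members. Their ratio went from 4.85 ± 0.423 in the controls to 6.29 ± 0.159 in the tumors. The log2 difference was 0.38 ± 0.12 (SE), with a 95% confidence interval from 0.10 to 0.65 and a limma adjusted p of 0.0218. This call was lost when control 2 was left out (adjusted p = 0.0611, limma), when control 3 was (adjusted p = 0.106) and when tumor 1 was (adjusted p = 0.0786), and the adjusted p over all alternatives ran from 0.00162 to 0.106.

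**Figure D2:**
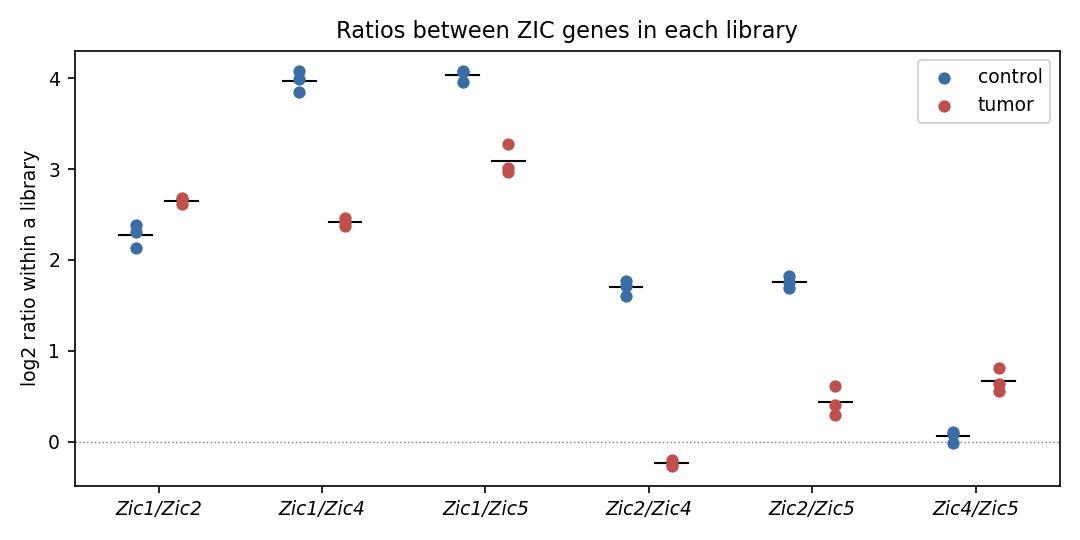
Log2 ratio of each pair of ZIC genes within each library, for controls (blue) and tumors (red), with the group mean as a black line and a dotted line at equal counts. The ratios of Zic1 to Zic4 and of Zic2 to Zic4 separate most, and the ratio of Zic1 to Zic2 separates least.

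Levels of different genes can be compared only per length. The length first used was that of the coding transcript named above for each gene (5606, 2440, 3891 and 4767 bases for Zic1, Zic2, Zic4 and Zic5). With it, Zic1 stood at 182.5 ± 14.7 RPKM (reads per kilobase, scaled to library depth) in the controls and 201.2 ± 19.6 in the tumors. Zic2 stood at 86.4 ± 0.614 RPKM in the controls and 73.4 ± 5.81 in the tumors. Zic4 went from 16.7 ± 0.942 to 54.2 ± 3.50 RPKM and Zic5 from 13.1 ± 0.509 to 27.8 ± 2.16. The order Zic1, Zic2, Zic4, Zic5 was the same in both groups, and each neighbour in that order was separated by more than the SD of either.

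Zic1 held 61.0% ± 1.92 of the summed RPKM of the 4 genes in the controls and 56.4% ± 0.930 in the tumors. The share of Zic2 went from 29.0% ± 1.68 to 20.6% ± 0.378, that of Zic4 from 5.60% ± 0.322 to 15.2% ± 0.262 and that of Zic5 from 4.38% ± 0.0648 to 7.83% ± 0.781. Zic1 was the largest part in every library. The shares and the places of Zic4 and Zic5 depend on the length used. Over the union of annotated exons, 10335 bases for Zic4 and 4889 for Zic5, Zic4 stood at 6.30 RPKM in the controls and 20.4 in the tumors, below Zic5 at 12.8 and 27.1. The share of Zic4 was then 2.32% in the controls and 6.63% in the tumors, that of Zic5 4.69% and 8.85% and that of Zic2 27.0% and 20.2%. With this length the share of Zic1 was 66.0% ± 1.83 and 64.3% ± 0.940, and its groups overlapped.

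**Figure D3:**
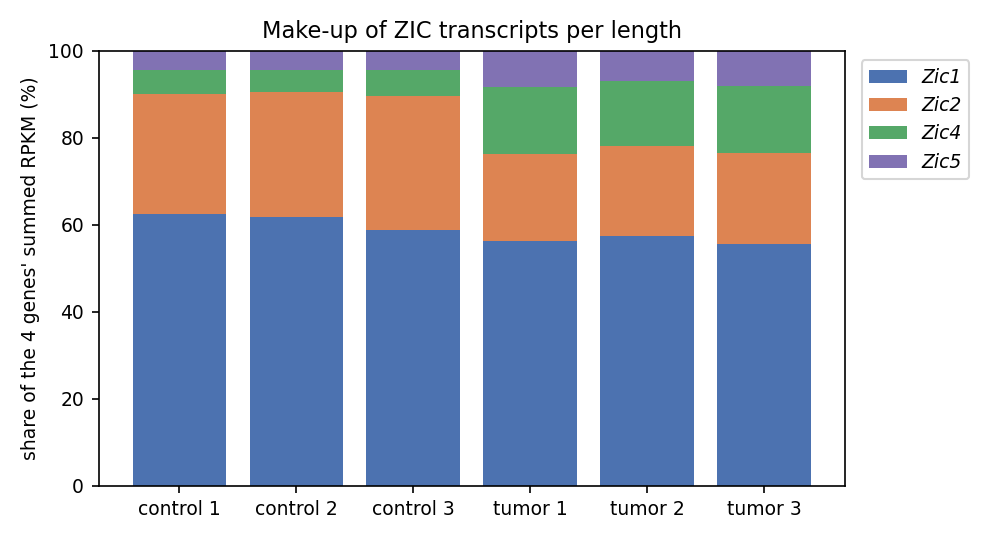
Share of Zic1, Zic2, Zic4 and Zic5 in their summed RPKM in each of the 6 libraries, with the coding transcript used for each gene as the length. Zic4 holds 5.60% on average in the controls and 15.2% in the tumors, or 2.32% and 6.63% with the union of exons as the length.

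The closest relatives of the ZIC genes, the GLI and GLIS zinc finger genes, were compared next. Of 6 tested, 3 were called higher, 0 lower and 3 not called, where 30.6% of all tested genes were called higher and 31.5% lower. Their median log2 fold change was 1.28, against -0.02 over all tested genes. Gli2, the main transcriptional activator of Hedgehog signalling, had normalized counts of 178.7, 198.55 and 177.5 in controls 1 to 3 and 2629, 3664 and 3028 in tumors 1 to 3. Every tumor lay far above every control, a log2 fold change of 4.05 (limma adjusted p = 1.23e-08). Gli1, a direct target of the pathway that also amplifies it, rose by 3.44 on the log2 scale, and Glis2 rose by 1.67. Gli3, which acts mostly as a repressor, was at 366.1 ± 34.3 counts in the controls and 467.4 ± 55.7 in the tumors, a log2 fold change of 0.35 that missed the threshold (limma adjusted p = 0.0612). Over its alternatives the adjusted p of Gli3 ran from 0.0264 to 0.181, and it passed with library totals, with TMM scaling and without tumor 1. Glis3 (log2 fold change 0.34) and Glis1 (8 reads over the controls and 17 over the tumors) did not pass the test. Gli1 and Gli2 thus had larger log2 fold changes than any of the 4 ZIC genes, while the 0.35 of Gli3 lay between those of Zic1 and Zic5.

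The RNA of genes whose proteins are reported to bind ZIC proteins was mostly higher in the tumors. Of 10 such genes, 7 were called higher, 2 lower and 1 not called, with a median log2 fold change of 1.08. Over all tested genes, 30.6% were called higher and 31.5% lower. Xrcc5, a Ku subunit of DNA repair, had 936.9, 986.8 and 1028 normalized counts in controls 1 to 3 and 3885, 3140.2 and 3886 in tumors 1 to 3, a log2 fold change of 1.88 with no overlap. Its partner Xrcc6 rose by 0.81. Chd4 and Mbd3, subunits of the NuRD chromatin remodelling complex, rose by 1.29 and 1.23, the RNA helicase Dhx9 by 1.22, Parp1 by 1.23 and Mdfic by 0.94. Prkdc, the catalytic subunit of the DNA-dependent protein kinase that works with Ku, fell by 0.36. Mdfi, the I-mfa protein that retains ZIC proteins in the cytoplasm when overexpressed, fell from 243.1 ± 16.1 to 75.4 ± 14.6 counts, a log2 fold change of -1.69 (limma adjusted p = 8.26e-05). Its relative Mdfic moved the other way. Tcf7l2, a Wnt pathway effector, had a log2 fold change of 0.37 (limma adjusted p = 0.0596, from 0.0216 to 0.176 over the alternatives) and passed with library totals, with DESeq2 and without tumor 3.

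**Figure D4:**
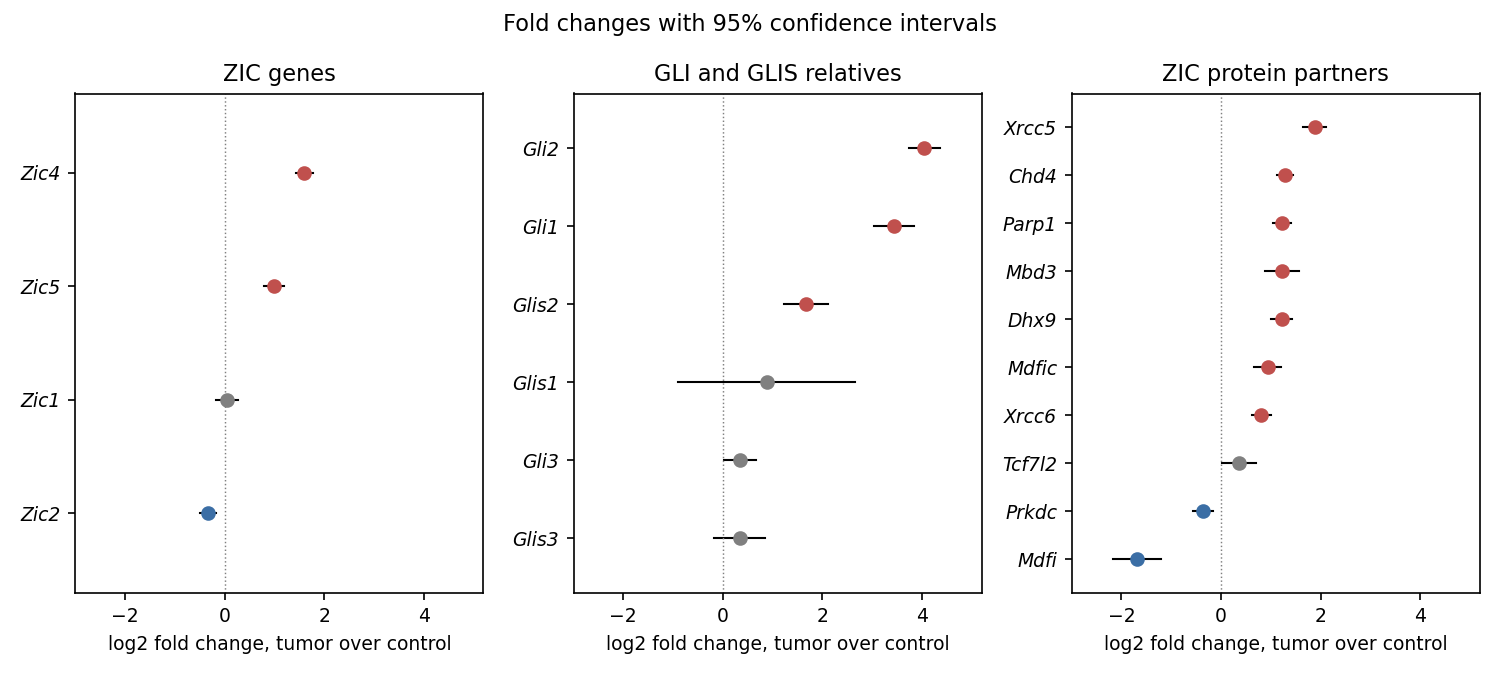
Log2 fold change, tumor over control, with its 95% confidence interval for the 4 ZIC genes (left), the 6 GLI and GLIS genes (middle) and 10 partner genes (right). Red marks genes called higher, blue lower and grey not called, and all panels share 1 scale.

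Genes that ZIC proteins have been reported to regulate, in any tissue, moved in both directions. So did the tested genes as a whole, of which 30.6% were called higher and 31.5% were called lower. Of 10 genes listed for ZIC regulation, 8 could be tested, 2 were called higher, 3 lower and 3 not called, with a median log2 fold change of -0.41. That median was -0.058 without tumor 2, and -0.95 when genes with few reads were filtered out more strictly. Atoh1, the granule progenitor factor that Zic1 represses in the chick neural tube, was counted 16 times over the controls and 15207 times over the tumors, a rise of 9.66 on the log2 scale (8.99 without control 1 and 10.28 without control 3). The Math1-Cre transgene is driven by sequences of this gene, and its part in these reads was not tested. Apoe, whose promoter binds ZIC1 and ZIC2 in cell culture, rose by 1.23. Grin2c, the NMDA receptor subunit of mature granule neurons, was at 6342 ± 505 counts in the controls and 557.2 ± 183 in the tumors, Pax3, a neural crest factor, at 595.1 ± 45.0 and 139.2 ± 36.3, and Ephb1, an axon guidance receptor, at 3281 ± 218 and 1694 ± 110. All 3 of these were called lower, with log2 fold changes of -3.57, -2.12 and -0.95. Drd1a, Snai2 and Slc6a4 did not pass the test, although Drd1a did without tumor 1 (limma adjusted p = 0.0383), and Foxd3 and Myf5 had 0 reads in every library.

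The ZIC genes are used along the granule lineage, so the markers of its stages are given beside them. For each list in this paragraph, the shares over all tested genes were 30.6% called higher and 31.5% lower. Of 19 granule lineage transcription factors, 10 were called higher, 7 lower and 2 not called, a median log2 fold change of 0.71, and a summed level of 91920 to 100470 normalized counts in the controls and 236232 to 261687 in the tumors. The largest rises were those of Atoh1, a progenitor factor, at 9.66 and of Nhlh1 at 8.98. The largest falls were those of Etv1 and Neurod2, which mark maturing neurons, at -2.66 and -2.53. These genes were named for the size of their change, and the list was not split by stage. All 12 mature granule neuron markers were called lower, with a median of -3.12, and their summed level was 331836 to 377597 in the controls and 33139 to 54057 in the tumors. They include Gabra6, the receptor subunit specific to these neurons in the cerebellum, at -3.90, Cbln3 at -3.79, Cadps2 at -2.36 and Rbfox3 at -1.02. All 8 Hedgehog target genes were called higher, with a median of 4.30, from Hhip at 1.04 and Ptch1 at 1.76 to Mycn at 5.54 and Sfrp1 at 6.06. All 8 proliferation genes were called higher as well, with a median of 7.15 and values from Pcna at 2.67 and Mcm2 at 4.40 to Mki67 at 7.68 and Top2a at 7.83.

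Other cells of the cerebellum and its coverings can also express ZIC genes. For each marker list below, the shares over all tested genes were 30.6% called higher and 31.5% lower. Of 11 GABAergic interneuron markers 10 were called lower and 1 higher, with a median of -3.07 and a summed level of 133350 to 141175 counts in the controls and 20702 to 28603 in the tumors. Tfap2b and Slc6a5 stood at -3.59 and -3.46, Kit at -2.68, and Lhx1 was the gene called higher, at 1.38. All 7 Purkinje cell markers were called lower with a median of -3.29, their summed level being 451915 to 462019 in the controls and 36549 to 72632 in the tumors, with Calb1 at -3.38, Car8 at -3.36 and Pcp2 at -3.03.

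Of 13 meningeal fibroblast markers 8 were called lower, 3 higher and 2 not called, with a median of -0.67 and a summed level of 21670 to 26885 counts in the controls and 14957 to 17306 in the tumors. Ogn and Slc22a6 stood at -2.98 and -2.26, and Islr and Aldh1a2 at 0.87 and 0.74. Of 9 choroid plexus markers 7 were called lower, 1 higher and 1 not called, with a median of -3.93 and a summed level of 74312 to 129010 in the controls and 5941 to 28992 in the tumors. Kcne2 and Ttr stood at -5.10 and -4.44, and in tumor 3 Kcne2 had 0 reads and Ttr 231.2 normalized counts against 16889.7 or more in the other tumors. Without tumor 3, Kcne2 stood at -2.69, Ttr at -2.33 and the median of the list at -2.33. Otx2, also a medulloblastoma gene, was the marker called higher, at 1.82, and Kl stood at -2.60. Of 7 astrocyte and Bergmann glia markers 5 were called lower, 1 higher and 1 not called, with a median of -0.43 and a summed level of 217643 to 224020 in the controls and 143503 to 153080 in the tumors. Gfap rose by 1.63, and Gdf10, Slc1a3 and Slc1a2 stood at -3.11, -1.39 and -0.37. The part of these cell types in the ZIC values was not tested.

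The genes around the ZIC loci were described within 500 kb of either member of a pair. On chromosome 9, 15 other genes lay in that window, mostly unnamed transcribed loci and pseudogenes, and 5 of them had no reads. Of 9 tested, 7 were called higher, 0 lower and 2 not called, with a median log2 fold change of 1.80, where 30.6% of all tested genes were called higher and 31.5% lower. RP23-340C13.8, 7105 bases away from Zic1, had 84.9, 104.6 and 106.9 normalized counts in controls 1 to 3 and 246.3, 215.5 and 303.0 in tumors 1 to 3, a log2 fold change of 1.35 with no overlap. RP23-340C13.5 and RP23-340C13.4 rose by 1.80 and 1.15, and the pseudogene Gm5620 by 2.05. Reads were few for the others. RP24-135P4.2 had 11 over the controls and 325 over the tumors, RP23-186M2.1 had 3 and 61, and RP23-36P5.1 had 1 and 202. Inside Zic4, on the other strand, RP23-340C13.9 overlaps an exon of a Zic4 retained-intron transcript, so its reads are uncertain. It had 119.6 ± 7.27 counts in the controls and 128.1 ± 29.4 in the tumors and was not called (limma adjusted p = 0.811), nor was the long noncoding RNA Gm29478 beyond Zic4 (log2 fold change -0.54).

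On chromosome 14, 19 other genes lay in the window, and 1 had no reads. Of 16 tested, 4 were called higher, 6 lower and 6 not called, shares near the 30.6% and 31.5% of all tested genes, with a median log2 fold change of -0.01. The noncoding transcript 2610035F20Rik starts 236 bases from Zic2 and runs the other way, in the gap between Zic2 and Zic5. It had 186.5, 224.7 and 159.3 normalized counts in controls 1 to 3 and 768.4, 505.6 and 602.1 in tumors 1 to 3, with every tumor above every control. Its log2 fold change was 1.70 ± 0.20 (SE) with a limma adjusted p of 3.73e-05, opposite in sign to that of Zic2. Gm5089, next to Zic5, was called higher at 0.77 (limma adjusted p = 0.0379, from 0.00394 to 0.111 over the alternatives). That call was lost under upper-quartile scaling and without control 1, control 2, control 3, tumor 2 or tumor 3. Gpr183 and A330035P11Rik stood at 1.11 and 1.17 farther out. On the far side of Zic2, Pcca, a mitochondrial propionyl-CoA carboxylase subunit, stood at -0.999, Tmtc4 at -1.83, Ggact at -2.28, 4930594M22Rik at -2.54 and Gm15735 at -3.08. Tm9sf2, beyond Zic5, stood at -0.57, and Clybl, an enzyme of mitochondrial metabolism, was not called at -0.13.

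**Figure D5:**
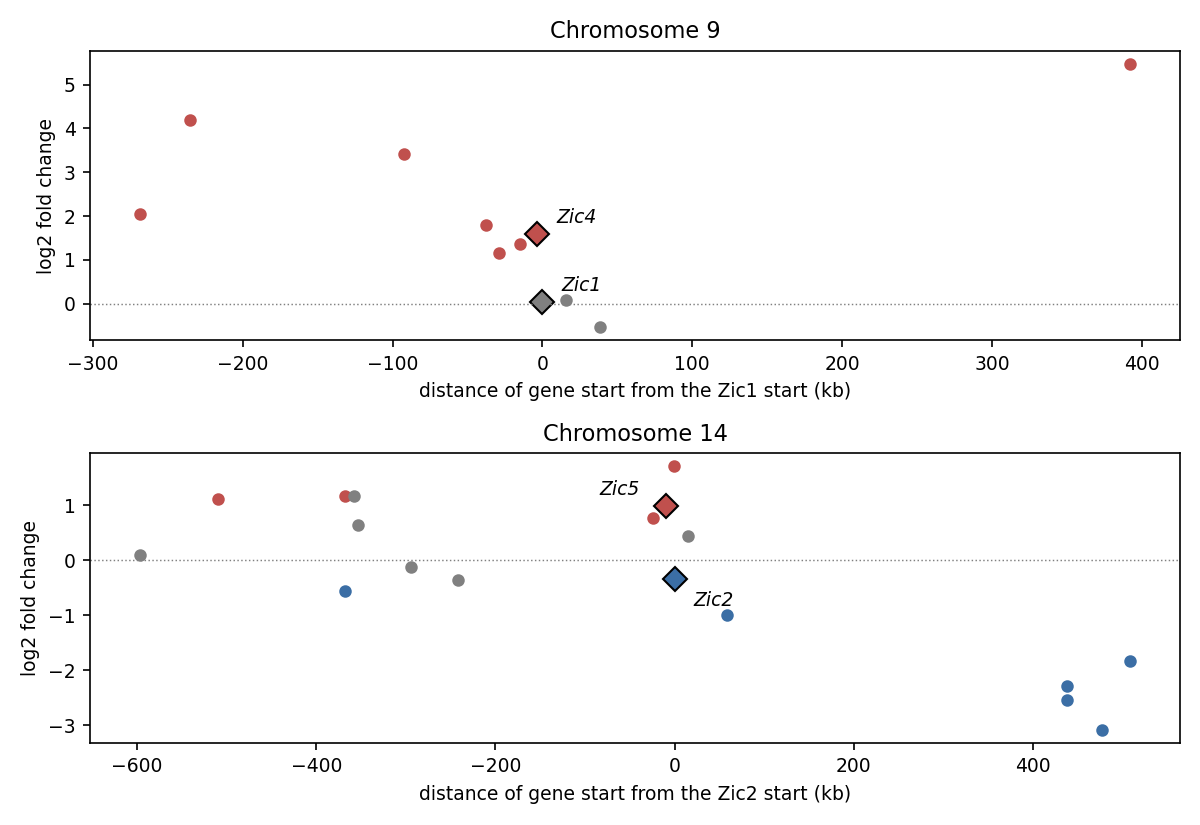
Log2 fold change of each tested gene near the ZIC genes against the distance of its start from the start of Zic1 (top, chromosome 9) or Zic2 (bottom, chromosome 14), in kb. Diamonds are the ZIC genes and circles the others, with red for called higher, blue for lower and grey for not called. The circle just above Zic2 is 2610035F20Rik, at 1.70.

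The genes whose profile over the 6 libraries was closest to each ZIC gene were found by the Euclidean distance between centred log2 values, among named genes with a mean of at least 100 counts. For Zic1 they were Ago2, Tubgcp4 and Srrm4, at distances of 0.0948, 0.0994 and 0.106. For Zic2 they included Eif2ak3 (0.0510) and Napa (0.0628), and for Zic4 they were Mettl1 (0.0658), Ints7 (0.0809) and Alyref (0.0943). For Zic5 they were Psme4 (0.0621), Utp18 (0.0780) and Zfp451 (0.0809). Psme4 had 14308, 12118 and 12940.4 counts in tumors 1 to 3, the same order of tumors as Zic5, while the order of their controls differed. No ZIC gene was eligible as the nearest profile of another, since members were left out of the search.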

How the data were processed

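Cerebellar RNA of 3 control and 3 tumor samples was sequenced after TruSeq library preparation, per the labels' protocols. The submitters' processing notes name Bowtie2 2.2.4, featureCounts, edgeR, FastQC and the mm10 build, without a role for each. The deposited signal values are gene counts that the authors divided by a size factor for each library. Every value was a whole number of reads after multiplying back (tolerance 1e-06). The authors also deposited a fold change (a ratio) and p-values with false discovery rates for each gene. Groups and replicate numbers come from the sample titles and genotypes.

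The main test was limma 3.58.1 with a trend on log2(value + 1), for genes above 1 in at least 3 libraries, with Benjamini-Hochberg adjustment over 22117 genes and a threshold of 0.05. A fold change on this scale understates the change of low genes. Ratios between members were fitted with limma on the log2 ratio of every gene to a member. Alternatives were pseudocounts of 0.5 and 5, other filters and scalings, edgeR 4.0.16, DESeq2 1.42.0, a replicate block and leaving out each sample. The floor of 3 reads covers counting error only. The fitting script was tested on simulated data.

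The members, gene lists and tests were chosen with earlier results of these data known. Named genes were the members, all genes within 500 kb, the 3 nearest profiles of each member, every gene of the relative, partner and regulated lists, and from each other list the called genes with the 2 largest and 2 smallest changes. Of the genes so named, 2 are not reported here. Promoters are from RefSeq (GRCm38.p6).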

Additional observations from a re-analysis of the deposited data

How the results depend on the processing

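Over 16 alternatives the log2 fold change of Zic2 ran from -0.45 to -0.24 (highest limma adjusted p 0.0198), that of Zic4 from 1.49 to 1.69 (highest 1.32e-06) and that of Zic5 from 0.88 to 1.09 (highest 6.55e-05), so direction and call held in all. Zic1 was called in none and ran from -0.07 to 0.14, its sign turning under upper-quartile scaling (-0.068). That scaling shifted the median of all genes by -0.11. Leaving out 1 sample at a time, Zic1 ran from -0.025 to 0.091. The Zic1 to Zic2 log2 difference ran from 0.31 to 0.43 and lost its call without control 2, control 3 or tumor 1, where fewer samples were fitted. Genes called higher ran from 5787 to 7397 and lower from 5622 to 7618.

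Of 90 other named genes, 79 kept direction and call, 5 changed call and 6 uncalled genes changed sign. Under upper-quartile scaling Tubgcp4 (-0.073), Ago2 (-0.090), Srrm4 (-0.10) and RP23-340C13.9 (-0.036) turned. Over the samples left out, Ago2 ran from -0.055 to 0.080, Srrm4 from -0.040 to 0.060, RP23-340C13.9 from -0.046 to 0.28, Slc6a4 from -0.082 to 1.31 and Snai2 from -0.058 to 0.29. The cause was not tested. Calls changed for Gli3, Tcf7l2, Drd1a, Gm5089 and Kcne2, the last with DESeq2 (adjusted p = 0.0833, the highest over its alternatives).

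After centring within each group, same-numbered samples correlated at 0.0221, -0.0512 and -0.0073 across genes. Differently numbered samples ran from -0.0471 to 0.0529. This gave no sign that the numbers pair samples, but with 3 centred samples a group it cannot exclude pairing. With the replicate block the adjusted p was 0.00509 for Zic2 and 0.0438 for the Zic1 to Zic2 difference, the block changed no call among the ZIC genes, and 6744 genes were called higher and 6943 lower. With 3 samples a group, changes much smaller than that of Zic2 could be missed, and read depth limits Slc6a4 and Glis1.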
